A study of Mus musculus with 12 samples.

Results

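The genes described here encode the proteins of the cytosolic ribosome. They were taken by name from the deposited tables: every gene whose symbol is Rpl or Rps followed by a number and at most the letter a or x, together with Rplp0, Rplp1, Rplp2 and Rpsa. The rule finds 76 of 55536 genes, 30 of the small subunit and 46 of the large subunit, and leaves out pseudogenes and near relatives such as Rps27l. All 76 are annotated as protein coding, they lie on 19 chromosomes, and 4 of them (Rpl10, Rpl36a, Rpl39 and Rps4x) are on the X chromosome. No measured value was used to choose them.

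RNA was sequenced from livers of wild-type C57BL/6J mice aged 8 weeks that had been given an adenovirus carrying a short hairpin RNA (shRNA). The shG0s2 group (4 samples) had a hairpin against G0s2, an inhibitor of adipose triglyceride lipase, the shRgs16 group (4 samples) one against Rgs16, a regulator of G protein signalling, and the shLacZ group (4 samples) one against the bacterial gene lacZ. Virus was given by tail vein at 0.1 OD, and livers were taken 12 days afterwards at zeitgeber time 12, with food removed for the 6 h before. All groups shared strain, age, virus and food removal, so no group was free of virus, and the labels name no promoter that would limit the hairpin to a cell type.

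Ribosomal proteins assemble with ribosomal RNA into a small subunit, which reads the mRNA, and a large subunit, which joins amino acids. Their mRNAs are among the most abundant of most cells and are made in balanced amounts. Many begin with a terminal oligopyrimidine (TOP) tract, an unbroken run of C and T in the gene at the transcription start, through which the mTORC1 kinase controls their translation.

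Starts of 10 of the genes that the results turn on are printed to show the runs of C and T near them. RefSeq start regions (build GRCm38.p6) were held for 56 of the 76 genes. Each line gives the 15 bases before and the 15 bases from the annotated start onwards on the gene's own strand. Capitals mark the longest unbroken run of C or T anywhere in these 30 bases. That run need not lie at the start, so its length is not a measure of a TOP tract.
Rps2, chr17:24720048-24720077, plus strand: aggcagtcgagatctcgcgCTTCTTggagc
Rpl19, chr11:98026695-98026724, plus strand: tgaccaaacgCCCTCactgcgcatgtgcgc
Rpl27, chr11:101442230-101442259, plus strand: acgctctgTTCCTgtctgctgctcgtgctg
Rpl10, chrX:74270801-74270830, plus strand: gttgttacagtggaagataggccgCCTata
Rps4x, chrX:102189377-102189406, minus strand: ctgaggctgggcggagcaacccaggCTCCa
Rpl39, chrX:37085208-37085237, minus strand: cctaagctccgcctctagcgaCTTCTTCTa
Rps24, chr14:24490663-24490692, plus strand: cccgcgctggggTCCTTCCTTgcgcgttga
Rpl13a, chr7:45128731-45128760, minus strand: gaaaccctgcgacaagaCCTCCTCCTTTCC
Rpl7a, chr2:26910792-26910821, plus strand: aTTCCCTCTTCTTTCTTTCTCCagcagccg
Rps6, chr4:86857353-86857382, minus strand: aagcggaagtcgggCCTCTTTTTCgtgacg
The longest run was 21 bases in Rpl7a, 13 in Rpl13a, 10 in Rps6, 9 in Rps24 and 8 in Rpl39. It was 6 in Rps2, 5 in Rpl19, 5 in Rpl27, 4 in Rps4x and 3 in Rpl10. A run of 7 or more C or T within the 30 bases was present in 28 of the 56 ribosomal protein genes, against 18.3% of 20557 genes with a start region. Over 250 bases before and 50 after the start, on both strands, CCGGAAG (an ETS family motif) occurred in 22 of the 56 against 11% of all genes, and AAGATGGC (a YY1 motif) in 4 against 3.08%. CACGTG (an E-box) occurred in 5 against 7.65%, and TATAAA in 5 (Rpl36a, Rpl39, Rplp0, Rps2 and Rps28) against 13.2%. These are matches of letters near an annotated start, which for Rps2 and Rps24 lay 1947 and 3553 bases from the gene's start in the GENCODE annotation.

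Total estimated counts were 18458266 to 26031061 in shG0s2, 24855361 to 27170443 in shRgs16 and 25636504 to 26472233 in shLacZ. The targeted gene G0s2 had 124.88, 103.18, 60.36 and 95.01 TPM (a length-corrected share of transcripts) in shG0s2 against 134.75, 114.02, 110.88 and 100.99 TPM in shLacZ, with means of 95.9 ± 26.8 and 115 ± 14.2 TPM (SD, n = 4 each) and overlapping samples. In TPM, lower G0s2 mRNA was thus not clear in these samples. On that scale 68.6% of all genes tested had every shG0s2 sample above every shLacZ sample. G0s2 was not compared on another scale here. Rgs16 had 8.78, 12.56, 22.09 and 20.06 TPM in shRgs16 against 46.96, 94.27, 73.24 and 55.30 TPM in shLacZ, without overlap. Major urinary protein (Mup) mRNAs took 0.822 to 1.57% of counts in shG0s2, 1.16 to 3.31% in shRgs16 and 9.56 to 11.0% in shLacZ. A block of that size changes the share of every other gene, so the ribosomal protein genes were measured on several scales.

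As a share of the library, ribosomal protein mRNA was higher in shG0s2 and in shRgs16 than in shLacZ. The middle of all genes rose more. By library size alone, the median log2 fold change in shG0s2 against shLacZ was 0.39 for the 76 genes and 0.50 for all genes. In shRgs16 against shLacZ the medians were 0.23 and 0.31. The 76 genes together took 1.33, 1.38, 1.27 and 1.37% of all counts in the shG0s2 samples, 1.18, 1.14, 1.17 and 1.22% in the shRgs16 samples, and 1.04, 1.03, 1.07 and 0.963% in the shLacZ samples. No group overlapped another, with shG0s2 highest and shLacZ lowest. Group means were 1.34 ± 0.0504% in shG0s2, 1.18 ± 0.0345% in shRgs16 and 1.03 ± 0.0466% in shLacZ (SD, n = 4 each), which is 1.30 times the shLacZ mean in shG0s2 and 1.15 times in shRgs16. With Mup and mitochondrially encoded genes taken out of the total, the shares were 1.43 ± 0.0526% in shG0s2, 1.30 ± 0.0386% in shRgs16 and 1.23 ± 0.0515% in shLacZ, or 1.16 and 1.06 times the shLacZ mean. On that scale the shRgs16 samples (1.25 to 1.34%) overlapped the shLacZ samples (1.16 to 1.28%), while the shG0s2 samples (1.36 to 1.49%) lay above both. These sums were not tested, since the genes were chosen as a set.

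Corrected for transcript length, the gap was wider. Summed TPM over the 76 genes was 42429, 43656, 39209.9 and 42362 in the shG0s2 samples, 34959, 34942, 34799.8 and 36722 in the shRgs16 samples, and 27990.5, 27777, 29126 and 25776 in the shLacZ samples. No sample reached the next group. The mean was 1.51 times that of shLacZ in shG0s2 and 1.28 times in shRgs16. Small-subunit genes summed to 17254 ± 803 TPM in shG0s2, 14903 ± 342 TPM in shRgs16 and 11551 ± 653 TPM in shLacZ. Large-subunit genes summed to 24660.5 ± 1105 TPM in shG0s2, 20453 ± 589.6 TPM in shRgs16 and 16116 ± 742 TPM in shLacZ. The ratio of small to large subunit TPM was 0.700 ± 0.00635 in shG0s2, 0.729 ± 0.00878 in shRgs16 and 0.716 ± 0.00863 in shLacZ. The shG0s2 samples (0.692 to 0.707) lay below the shRgs16 samples (0.720 to 0.737) without overlap. The shLacZ samples (0.705 to 0.724) overlapped both. Gene by gene, 76 of 76 had every shG0s2 TPM above every shLacZ TPM, as had 68.6% of all genes tested. In shRgs16, 70 lay wholly above shLacZ and 2 (Rps2 and Rpl19) wholly below, against 51.3% and 4.25% of all genes.

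**Figure D1:**
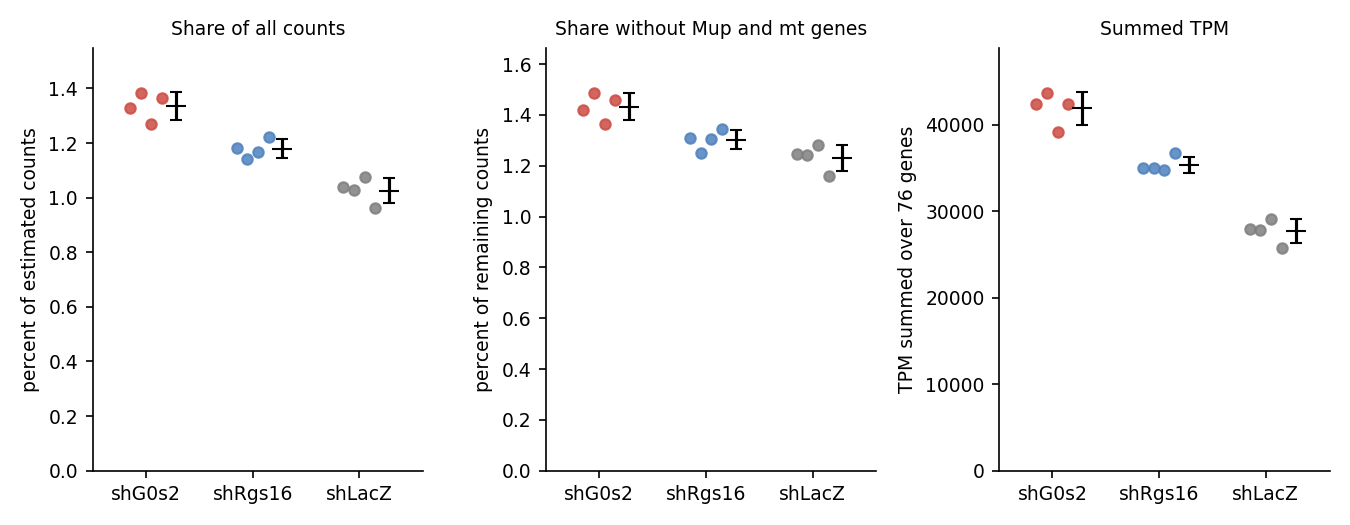
Summed level of the 76 ribosomal protein genes in each sample, as percent of all estimated counts (left), percent of counts without Mup and mitochondrially encoded (mt) genes (middle) and summed TPM (right). Points are samples, and marks at the right of each group are the mean and SD of 4 samples; shG0s2 lies above shRgs16 and shLacZ in each panel, and shRgs16 overlaps shLacZ in the middle panel.

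How many single genes passed a test depended on the scale. For shG0s2 against shLacZ, with edgeR's quasi-likelihood test and library size as the only scaling, 68 of the 76 genes rose and 0 fell (adjusted p under 0.05 over 15592 genes), beside 64.5% of all genes rising and 8.01% falling. Their median log2 fold change was 0.39, and that of all genes was 0.50. With limma on log2(TPM + 1), 76 rose and 0 fell, beside 74.3% and 4.63% of all genes, with a median of 0.61 against 0.54 for all genes. With Mup and mitochondrial genes removed from the library size, 54 rose and 0 fell, beside 51.9% and 12.4% of all genes, with a median of 0.23 against 0.33. TMM scaling, which places the middle of all genes near no change, gave 7 higher and 27 lower, beside 31.3% and 29.2% of all genes, and a median of -0.09 against 0.01. TMM factors were 1.13 to 1.25 in shG0s2, 0.998 to 1.05 in shRgs16 and 0.803 to 0.883 in shLacZ. Among these 4 scales the median of the ribosomal protein genes was below 0 with TMM alone, while that of all genes was above 0 on each. It lay above the median of all genes on log2(TPM + 1) and below it on the other 3. Adding 1 to TPM shrinks the fold changes of genes at low level, so that scale is not of the same measure as the others. The SD of the fold changes over genes was 0.16 for the ribosomal protein genes and 0.98 for all genes (TMM). On log2(TPM + 1) these were 0.17 and 0.67. No genes of matched level were compared, so the SDs do not show whether the ribosomal protein genes varied less than other genes as abundant.

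For shRgs16 against shLacZ, library size alone gave 60 higher and 4 lower, beside 50.1% and 8.35% of 15324 genes, and a median of 0.23 against 0.31 for all genes. The 4 lower genes were Rps2, Rpl19, Rpl27 and Rpl10. On log2(TPM + 1), 71 rose and 2 fell (Rps2 and Rpl19), beside 57.8% and 4.91% of all genes, with a median of 0.39 against 0.32. Without Mup and mitochondrial genes in the library size, 29 rose and 4 fell, beside 38.2% and 12.7%, with a median of 0.11 against 0.19. TMM gave 3 higher (Rpl12, Rps24 and Rps4x) and 17 lower, beside 24.6% and 24.5%, with a median of -0.07 against 0.01. In the authors' deposited table, at an adjusted p under 0.05, 4 of the 76 genes were higher and 30 lower in shG0s2 over shLacZ. In shRgs16 over shLacZ, 3 were higher and 19 lower. The authors' own mark of significance was given to 0 of the 76 genes in either comparison. The share of all genes under that threshold in their table was not counted. Both comparisons share the same 4 shLacZ samples.

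Between shG0s2 and shRgs16, in a fit of all 12 samples with library size alone, 41 of the 76 genes were higher and 0 lower in shG0s2 than in shRgs16, beside 37.8% and 9.81% of 16018 genes. The median was 0.16 for the ribosomal protein genes and 0.21 for all genes. On log2(TPM + 1), 56 were higher and 0 lower, beside 42.0% and 7.24%. Without Mup and mitochondrial genes, 31 were higher and 0 lower, beside 32.8% and 11.3%. TMM gave 8 higher and 13 lower, beside 21.0% and 20.5%. Across 6 scalings and tools (edgeR with TMM, relative log expression, or library size with or without Mup and mitochondrial genes, DESeq2, and limma on TPM), some genes were called every time. These were, on the higher side, Rpl12, Rpl35, Rpl39, Rps13, Rps15a and Rps4x in shG0s2 against shLacZ, Rpl12, Rps24 and Rps4x in shRgs16 against shLacZ, and Rpl19, Rpl27, Rpl35, Rpl39, Rpl41, Rps19, Rps2 and Rps20 in shG0s2 against shRgs16. On the lower side they were Rpl19 and Rps2 in shRgs16 against shLacZ. Both library size scalings and limma on TPM placed the ribosomal protein genes higher than TMM did. A gene higher by TMM would thus tend to pass those settings too, and agreement on the higher side adds little to the TMM call. The share of all genes called every time was not counted. With TMM, some of these calls did not hold under the other alternatives. Rps15a in shG0s2 was lost with no filter, with a replicate block, and without shG0s2 replicate 1 or 4 or shLacZ replicate 2 or 4 (adjusted p = 0.056 to 0.11). Rps13 in shG0s2 was lost without shG0s2 replicate 4 or shLacZ replicate 4 (adjusted p = 0.059 to 0.077). Rps24 in shRgs16 was lost with no filter, with a replicate block, and without any one of 7 samples, shRgs16 replicates 1, 3 and 4 and each shLacZ replicate (adjusted p = 0.062 to 0.12). For Rpl12, Rpl35, Rpl41, Rps19 and Rps20 no fit of the single gene with a sample left out was made.

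**Figure D2:**
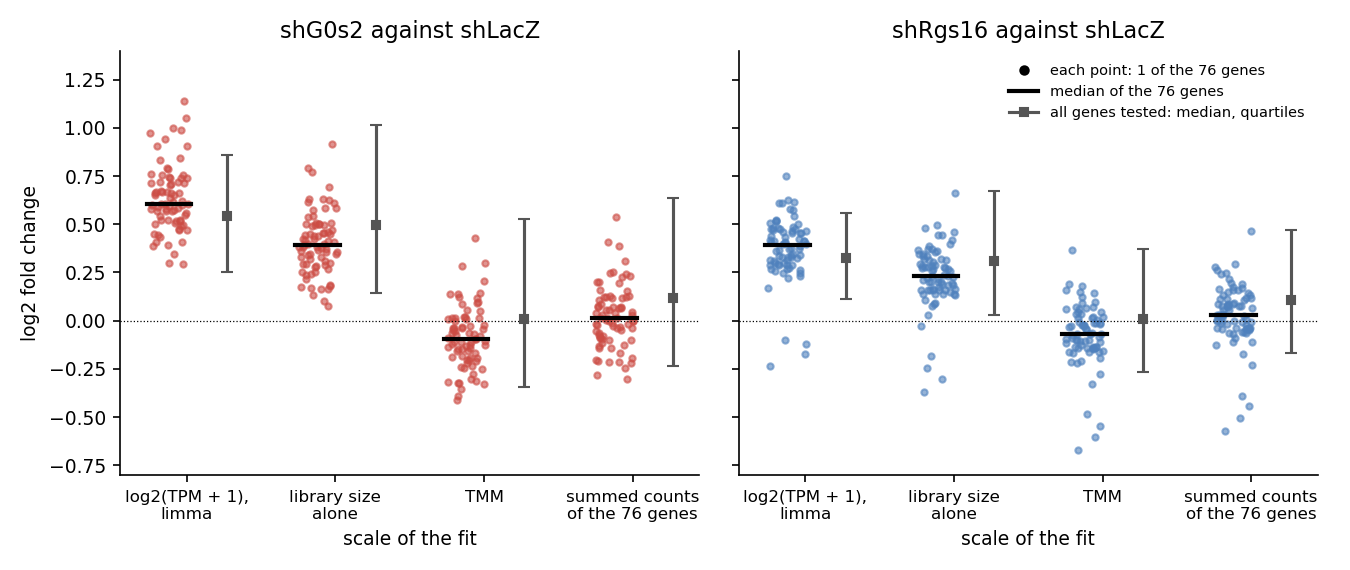
Log2 fold change of each of the 76 genes in shG0s2 (left) and shRgs16 (right) against shLacZ on 4 scales: limma on log2(TPM + 1), and edgeR with library size alone, TMM, or the summed counts of the 76 genes as library size. Black lines are medians of the 76 genes and grey squares with bars are the median and quartiles of all genes tested; the centre of the 76 genes moves with the scale, from 0.61 to -0.09 in shG0s2.

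The genes differed widely in level, in much the same order in each group. Median TPM over the 76 genes was 514 in shG0s2, 422 in shRgs16 and 338 in shLacZ, and the median coefficient of variation between samples was 5.45%, 4.02% and 6.09% in the same groups. Rpl13a, a large-subunit protein that in human monocytes also acts outside the ribosome to silence inflammatory mRNAs, was the most abundant in shLacZ, with 1612, 1799, 1481 and 1640.0 TPM in shG0s2, 1421, 1277, 1345 and 1386 TPM in shRgs16, and 1104, 1131, 1140.1 and 999 TPM in shLacZ. Each group of samples lay wholly above the next. Rplp1, part of the flexible stalk of the large subunit with Rplp0 and Rplp2, averaged 1596 ± 78.3 TPM in shG0s2, 1507 ± 72.0 TPM in shRgs16 and 1051 ± 42.4 TPM in shLacZ. In shLacZ, Rpl13a (1094 ± 64.6 TPM) and Rplp1 differed by less than the SD of Rpl13a, and Rps27 (853 ± 54.3 TPM) and Rps2 (826 ± 37.3 TPM) by less than the SD of either. At the bottom in shLacZ were Rpl12 (10.7 ± 1.56 TPM), Rps12 (14.8 ± 2.46 TPM), Rps20 (34.0 ± 3.31 TPM), Rpl5 (66.8 ± 2.25 TPM) and Rps13 (73.3 ± 8.16 TPM). Of these, Rpl12, Rps12, Rpl5 and Rps13 have copies elsewhere in the genome that took most of the counts of their family, and Rps20 has a listed length of 3706 bases.

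**Figure D3:**
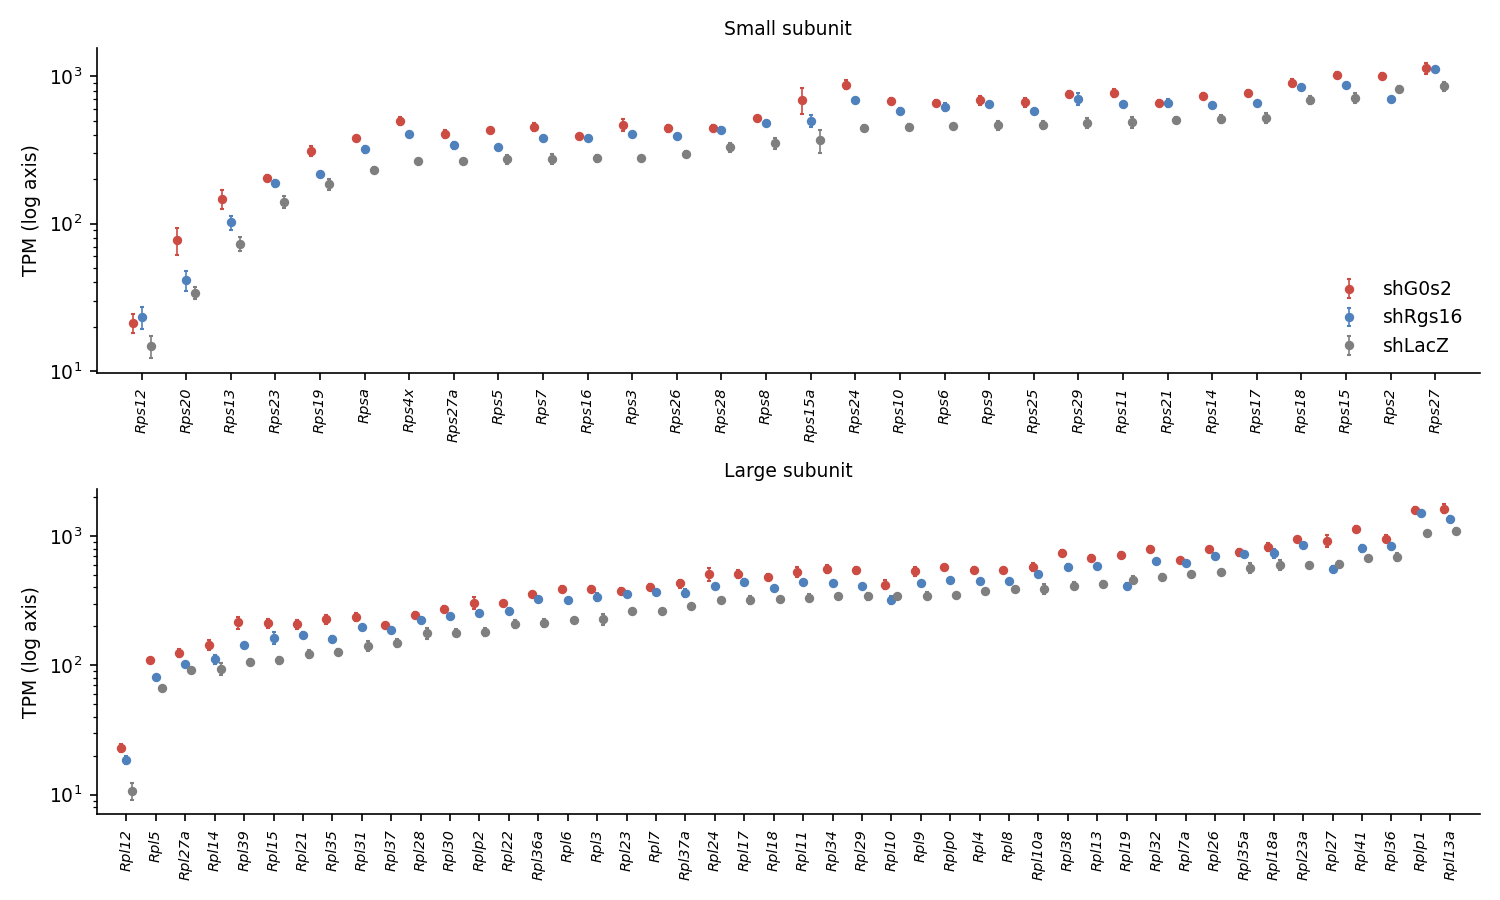
TPM of each ribosomal protein gene on a log axis, in small-subunit and large-subunit panels, ordered by the shLacZ mean. Points and bars are the mean and SD of 4 samples in shG0s2, shRgs16 and shLacZ; all 76 genes are higher in shG0s2 than in shLacZ, and Rps2 and Rpl19 are lower in shRgs16 than in shLacZ.

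To find subunits that departed from the rest, each gene was expressed as a percent of the summed counts of the 76 genes and tested with edgeR using that sum as the library size, and the values that follow are log2 fold changes on this relative scale unless another is named. In shG0s2 against shLacZ, 14 genes were higher and 10 lower relative to the sum, beside 36.7% and 22.1% of all genes measured against it. In shRgs16 against shLacZ, 13 were higher and 6 lower, beside 30.0% and 16.6%. In shG0s2 against shRgs16, 10 were higher and 13 lower, beside 20.8% and 18.4%. The sum is made of these genes, so the scale centres them and not all genes, and nothing was read from these shares.

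Rps2, a small-subunit protein near the site where mRNA enters the ribosome, had the lowest value in shG0s2 and in shRgs16. It held 4.13, 4.24, 4.19 and 4.12% of the summed counts in shG0s2, 3.61, 3.40, 3.42 and 3.44% in shRgs16, and 5.12, 5.04, 5.21 and 5.24% in shLacZ. No group overlapped another, and shRgs16 lay lowest. Rps2 fell by 0.30 in shG0s2 (SE 0.0617, adjusted p = 0.00096) and by 0.57 in shRgs16 (SE 0.0584, adjusted p = 1.4e-05), and was higher in shG0s2 than in shRgs16 by 0.27 (adjusted p = 0.0014). In TPM it averaged 1011 ± 47.5 in shG0s2, 702 ± 24.1 in shRgs16 and 826 ± 37.3 in shLacZ. Its fall in shRgs16 passed the test with each of the 6 scalings and tools, at -0.67 with TMM, -0.37 with library size alone and -0.23 on log2(TPM + 1). In shG0s2 its direction turned with the scale, at -0.41 with TMM but 0.29 on log2(TPM + 1), both past the test. The gene (GRCm38, chr17:24718116-24721929, plus strand) held 99.0% of the counts of its family of similar rows.

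Rpl19 and Rpl27, of the large subunit, were low in shRgs16. Rpl19, which reaches across to the small subunit in a bridge between the subunits, held 1.87, 1.97, 1.99 and 1.99% of the summed counts in shG0s2, 1.35, 1.37, 1.27 and 1.37% in shRgs16, and 1.85, 1.86, 1.97 and 1.93% in shLacZ. Every shRgs16 sample lay below every other sample, and shG0s2 and shLacZ overlapped. Rpl19 fell by 0.50 in shRgs16 (SE 0.056, adjusted p = 2.5e-05), while its 0.04 in shG0s2 did not pass (SE 0.0578, adjusted p = 0.58). The direct comparison of shG0s2 with shRgs16 gave 0.54 (SE 0.054, adjusted p = 1.7e-06). Rpl27 held 0.902, 0.848, 0.838 and 0.780% in shG0s2, 0.630, 0.617, 0.602 and 0.600% in shRgs16, and 0.864, 0.820, 0.814 and 0.836% in shLacZ. As with Rpl19, shRgs16 stood below both other groups, which overlapped. Rpl27 fell by 0.44 in shRgs16 (SE 0.0525, adjusted p = 3.8e-05), gave 0.02 in shG0s2 (adjusted p = 0.84), and was 0.46 higher in shG0s2 than in shRgs16 (adjusted p = 1.1e-05). On log2(TPM + 1) the shRgs16 value of Rpl27, -0.12, did not pass (adjusted p = 0.1). Rpl19 (chr11:98026710-98030492, plus strand) and Rpl27 (chr11:101442298-101445529, plus strand) share chromosome 11.

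Rpl10, an X-linked gene (chrX:74270812-74273135, plus strand) whose product joins late in large-subunit assembly, was lower in shG0s2 and in shRgs16 by its own row. It held 0.958, 1.10, 0.969 and 1.01% of the summed counts in shG0s2, 0.929, 0.874, 0.944 and 0.993% in shRgs16, and 1.21, 1.17, 1.18 and 1.35% in shLacZ. All shG0s2 and shRgs16 samples lay below all shLacZ samples. Rpl10 fell by 0.28 in shG0s2 (adjusted p = 0.0035) and by 0.39 in shRgs16 (adjusted p = 0.0005). Rpl10-ps3, a row named as a pseudogene of Rpl10, held 4661 to 6995 counts in shG0s2, 7142 to 7490.3 in shRgs16 and 5367 to 6236 in shLacZ, more than Rpl10 itself. With pseudogene counts added, Rpl10 gave -0.20 in shG0s2 (adjusted p = 0.01) and -0.07 in shRgs16 (adjusted p = 0.33), so the shRgs16 call was lost.

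**Figure D4:**
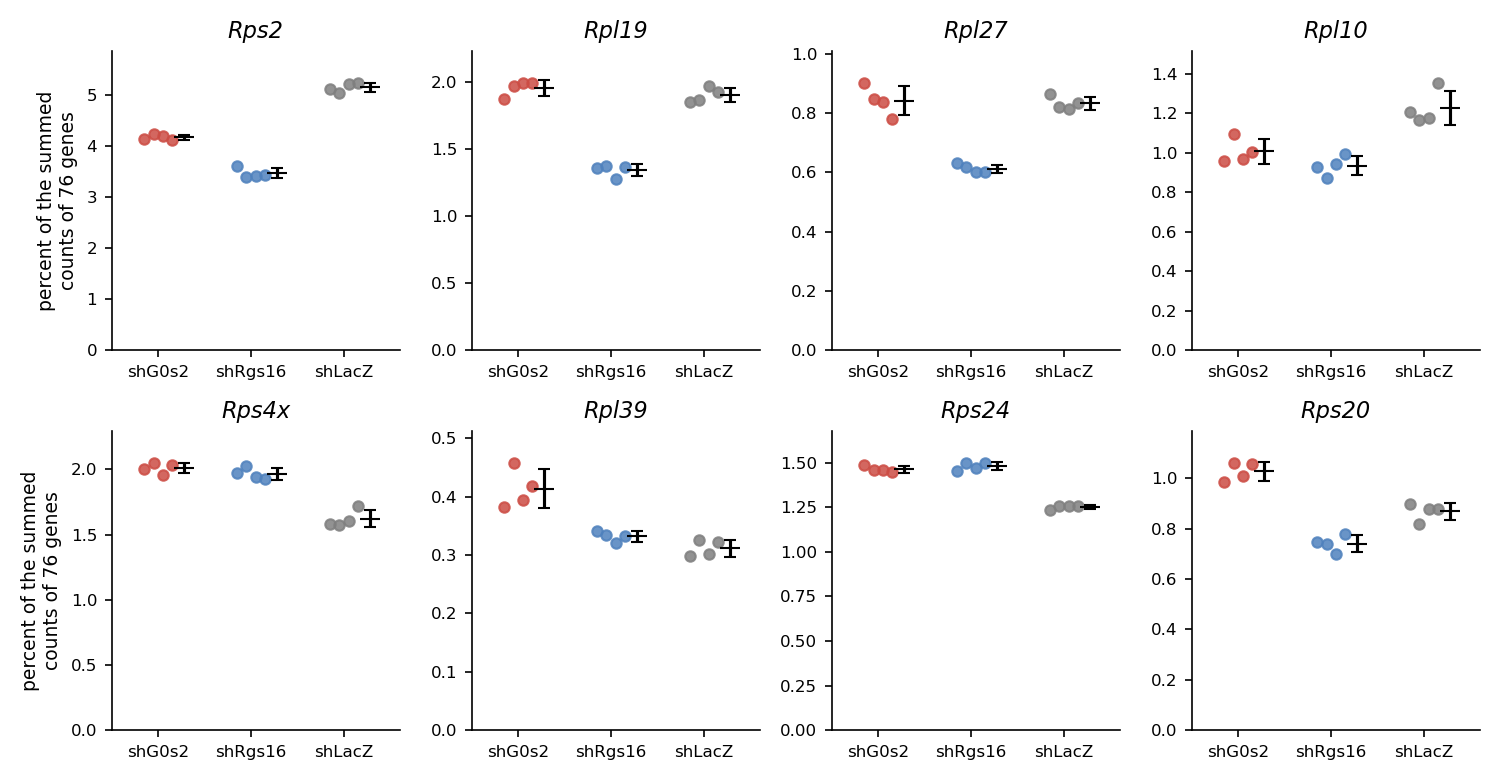
Percent of the summed ribosomal protein counts held by 8 genes in each sample, with the mean and SD of 4 samples at the right of each group. Rps2 and Rpl10 are lower in shG0s2 and shRgs16 than in shLacZ, Rpl19 and Rpl27 are lower in shRgs16 than in the other groups, Rps4x and Rps24 are higher in shG0s2 and shRgs16, Rpl39 is higher in shG0s2, and Rps20 is higher in shG0s2 and lower in shRgs16 than in shLacZ.

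On the high side, Rps4x and Rps24 rose in shG0s2 and in shRgs16. Rps4x, the X-linked gene of a small-subunit protein (chrX:102184941-102189394, minus strand), held 1.96 to 2.05% of the summed counts in shG0s2, 1.93 to 2.02% in shRgs16 and 1.58 to 1.72% in shLacZ. The shG0s2 and shRgs16 samples lay above shLacZ and overlapped each other. Rps4x rose by 0.31 in shG0s2 (SE 0.0582, adjusted p = 0.00053) and by 0.28 in shRgs16 (SE 0.0563, adjusted p = 0.0016). Rps24, a small-subunit protein whose human gene is mutated in Diamond-Blackfan anaemia, held 1.46 ± 0.0187% in shG0s2, 1.48 ± 0.0213% in shRgs16 and 1.25 ± 0.0104% in shLacZ, with every shG0s2 and shRgs16 sample above every shLacZ sample (SD, n = 4 each). It rose by 0.23 in shG0s2 (adjusted p = 0.0025) and 0.24 in shRgs16 (adjusted p = 0.0021). Rpl3, a large-subunit protein next to the catalytic centre, rose by 0.19 in shG0s2 (adjusted p = 0.024) and 0.25 in shRgs16 (adjusted p = 0.011). The shG0s2 call of Rpl3 was lost without shG0s2 replicate 1 or 4 or shLacZ replicate 1 or 2 (adjusted p = 0.055 to 0.089).

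Rpl39, an X-linked gene (chrX:37082520-37085402, minus strand) for a very small protein lining the exit tunnel, held 0.382, 0.458, 0.395 and 0.419% of the summed counts in shG0s2, 0.342, 0.334, 0.320 and 0.333% in shRgs16, and 0.298, 0.326, 0.301 and 0.322% in shLacZ. The shG0s2 samples lay above all others, and shRgs16 and shLacZ overlapped. Rpl39 rose by 0.41 in shG0s2 against shLacZ (SE 0.0724, adjusted p = 0.00037) and by 0.31 against shRgs16 (adjusted p = 0.0015), and its 0.09 in shRgs16 against shLacZ did not pass (adjusted p = 0.25). Rps15a, of the small subunit, rose by 0.25 in shG0s2 (adjusted p = 0.0023) and by 0.16 in shRgs16 (adjusted p = 0.039). Its shRgs16 call was lost without shRgs16 replicate 1, 2, 3 or 4 or shLacZ replicate 1, 2 or 4 (adjusted p = 0.051 to 0.13). Rps13, of the small subunit, rose by 0.39 in shG0s2 by its own row (adjusted p = 0.0038), which held 31.7% of its family's counts, and with pseudogenes added the value was 0.01 (adjusted p = 0.92). Rpl36a, the other X-linked gene, rose by 0.26 in shRgs16 (adjusted p = 0.0072) and by 0.24 with pseudogenes added (adjusted p = 0.008). With all rows of its family added, the largest being the protein-coding paralog Rpl36al, the value was -0.01 (adjusted p = 0.93).

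Rpl7a, Rps21 and Rps27 were low in shG0s2. Rpl7a, a large-subunit protein with the longest pyrimidine run of the printed starts, held 2.26 to 2.50% of the summed counts in shG0s2, 2.63 to 2.85% in shRgs16 and 2.73 to 2.86% in shLacZ, with shG0s2 below both other groups. It fell by 0.25 against shLacZ (adjusted p = 0.0039) and by 0.18 against shRgs16 (adjusted p = 0.018), the last call being lost without shG0s2 replicate 4 or shRgs16 replicate 3 (adjusted p = 0.052 to 0.06). Rps21, of the small subunit, held 0.427 to 0.484% in shG0s2, 0.528 to 0.599% in shRgs16 and 0.528 to 0.555% in shLacZ. It fell by 0.22 in shG0s2 against shLacZ (adjusted p = 0.0072) and by 0.28 against shRgs16 (adjusted p = 0.0016). In TPM, Rps21 was nevertheless higher in shG0s2 than in shLacZ, at 662 ± 24.1 TPM in shG0s2 against 504 ± 22.9 TPM in shLacZ. Rps27, a small-subunit protein with a zinc finger, held 0.476 to 0.613% in shG0s2, 0.621 to 0.678% in shRgs16 and 0.593 to 0.634% in shLacZ, with shG0s2 replicate 2 inside the shLacZ range. It fell by 0.21 in shG0s2 (adjusted p = 0.03), a call lost without shG0s2 replicate 1, 3 or 4 or shLacZ replicate 1 or 2 (adjusted p = 0.062 to 0.094). With pseudogenes added the value of Rps27 stayed at -0.21 (adjusted p = 0.032). Its row held 47.8% of its family's counts, the largest other row being the protein-coding paralog Rps27l. With all family rows added the value was -0.11 (adjusted p = 0.2).

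The genes taken for their roles (Rplp0, Rpl5, Rpl11, Rps6 and Rps27a) did not pass the test relative to the sum against shLacZ. This holds for their own rows with all samples kept. Rplp0, the base of the stalk and a common reference gene in PCR, held 3.28 to 3.75% of the summed counts in shG0s2, 3.31 to 3.51% in shRgs16 and 3.26 to 3.34% in shLacZ. Its 0.13 in shG0s2 (adjusted p = 0.11) and 0.04 in shRgs16 (adjusted p = 0.62) did not pass, although in TPM it averaged 578 ± 22.9 in shG0s2, 454 ± 15.6 in shRgs16 and 350.2 ± 12.6 in shLacZ. Without shG0s2 replicate 2 the shG0s2 value of Rplp0 passed, at 0.17 (adjusted p = 0.036). Its partner Rplp1 rose in shRgs16 by 0.19 (adjusted p = 0.014; 0.051 without shRgs16 replicate 1) and gave 0.00 in shG0s2 (adjusted p = 0.98). Rpl5 and Rpl11 together bind the small ribosomal RNA of the large subunit and, outside the ribosome, the p53 regulator Mdm2. Rpl5 gave 0.08 in shG0s2 (adjusted p = 0.32) and -0.04 in shRgs16 (adjusted p = 0.59), and Rpl11 gave -0.08 (adjusted p = 0.22) and -0.02 (adjusted p = 0.82). Rps6, the substrate of the S6 kinases downstream of mTORC1, gave -0.11 in shG0s2 (adjusted p = 0.12) and -0.01 in shRgs16 (adjusted p = 0.94), the shRgs16 value becoming 0.15 with pseudogenes added (adjusted p = 0.049). Rps27a, made as a fusion with ubiquitin, gave 0.00 (adjusted p = 0.99) and 0.01 (adjusted p = 0.84).

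Rpl12, Rps12 and Rps20 were chosen after their values were seen. Rpl12, at the base of the stalk, had the largest positive value of the 76 genes in both comparisons with shLacZ, at 0.54 in shG0s2 (adjusted p = 0.00042) and 0.47 in shRgs16 (adjusted p = 0.0037). Its level was 21.5 to 25.1 TPM in shG0s2, 17.3 to 20.3 TPM in shRgs16 and 8.43 to 11.9 TPM in shLacZ. Its row held 6.02% of its family's counts, most of which fell on the pseudogene row Gm10275 (3325 to 5295 counts in shG0s2, 4042 to 4688 in shRgs16 and 2892 to 3107 in shLacZ). With all family rows added, Rpl12 gave 0.35 in shG0s2 (adjusted p = 0.0003) and 0.37 in shRgs16 (adjusted p = 0.00032). Rps12 held 4.50% of its family's counts, and its -0.10 in shG0s2 (adjusted p = 0.54) and 0.29 in shRgs16 (adjusted p = 0.11) became 0.23 (adjusted p = 0.0032) and 0.27 (adjusted p = 0.0012) with family rows added. Rps20, a small-subunit protein, held 0.984, 1.06, 1.01 and 1.06% of the summed counts in shG0s2, 0.748, 0.738, 0.701 and 0.779% in shRgs16, and 0.899, 0.821, 0.880 and 0.877% in shLacZ. No group overlapped another. Rps20 rose by 0.24 in shG0s2 (adjusted p = 0.0028) and fell by 0.23 in shRgs16 (adjusted p = 0.006), and shG0s2 against shRgs16 gave 0.47 (adjusted p = 8.4e-06).

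Copies limit what a single row can say. Rows named as pseudogenes numbered 297, for 59 of the 76 genes, and 2538 further rows in all carried the orthology identifier of one of the 76. Of the 76, 53 held more than 95% of their family's counts and 9 held less than 50% (Rps12, Rpl12, Rpl5, Rps13, Rpl10, Rpl36a, Rpl14, Rpl27a and Rps27). For Rpl36a and Rps27 the largest other row was a protein-coding paralog, Rpl36al and Rps27l. With all family rows the summed share was 1.52 ± 0.0558% in shG0s2, 1.34 ± 0.0372% in shRgs16 and 1.17 ± 0.0532% in shLacZ, 1.30 and 1.15 times the shLacZ mean. Rps2, Rpl19, Rpl39, Rps24 and Rpl3 held 99.0%, 99.9%, 99.9%, 99.6% and 99.9% of their family counts, and Rpl27 held 78.7%, with -0.46 in shRgs16 when its family rows were added (adjusted p = 3e-05).

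Rps27l, a paralog of Rps27 outside the naming rule and a p53 target in human cells, had 648, 721, 584 and 681 TPM in shG0s2, 157, 144, 135 and 156 TPM in shRgs16, and 404, 439, 515 and 430.4 TPM in shLacZ. All shRgs16 samples were below all others. With TMM it fell by 2.02 in shRgs16 against shLacZ (SE 0.0736, adjusted p = 2.4e-08) and gave -0.15 in shG0s2 (adjusted p = 0.064), and with library size alone it fell by 1.72 in shRgs16 and rose by 0.34 in shG0s2 (adjusted p = 1.7e-07 and 0.0033). Adding family rows, of which Rps27l is the largest, moved Rps27 in shRgs16 to -0.76 (adjusted p = 1.9e-06), against 0.07 for its own row. Of 9 ribosomal protein genes outside the naming rule, 6 were tested, with TMM giving 0 higher and 3 lower in shG0s2 and 0 higher and 4 lower in shRgs16. Library size alone gave 4 higher and 0 lower in shG0s2 and 2 higher and 2 lower in shRgs16. The shares of all genes called on each scale are those given for the next lists.

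Other lists of the translation machinery were counted with TMM and with library size alone, since many counts moved with the scale. With TMM, 31.3% of all genes were higher and 29.2% lower in shG0s2, and 24.6% higher and 24.5% lower in shRgs16. With library size alone the shares were 64.5% and 8.01% in shG0s2, and 50.1% and 8.35% in shRgs16. Medians of all genes were 0.01 and 0.01 with TMM, and 0.50 and 0.31 with library size alone, in shG0s2 and shRgs16, and fold changes of single genes are by TMM unless named otherwise. Of 78 mitochondrial ribosomal protein genes, 1 was higher and 54 lower in shG0s2 (median -0.27), and 1 higher and 52 lower in shRgs16 (median -0.32). The cytosolic set had medians of -0.09 in shG0s2 and -0.07 in shRgs16. Library size alone moved the mitochondrial counts to 41 higher and 2 lower in shG0s2, and 9 higher and 15 lower in shRgs16 (medians 0.22 and -0.02). Mrps5 fell by 0.76 in shG0s2 and 0.47 in shRgs16, and Mrpl37 by 0.23 in shG0s2 and 0.80 in shRgs16. By library size alone Mrpl37 was 0.26 higher in shG0s2 (adjusted p = 0.0088). Of 19 translation factors and other TOP mRNAs, 2 were higher and 11 lower in shG0s2 (median -0.18), and 0 higher and 5 lower in shRgs16 (median -0.13). Scaled by library size alone, the list had 14 higher and 1 lower in shG0s2 and 10 higher and 1 lower in shRgs16 (medians 0.31 and 0.17). Nap1l1, a histone chaperone, rose by 0.78 in shG0s2 and fell by 0.36 in shRgs16, the last at -0.06 with library size alone (adjusted p = 0.49). Eif4b, which assists unwinding of mRNA at initiation, fell by 0.68 in shG0s2 and 0.82 in shRgs16. Of 8 non-coding hosts of small nucleolar RNAs, 0 were higher and 4 lower in shG0s2, and 0 higher and 3 lower in shRgs16. Library size alone counted 1 higher and 1 lower in shG0s2 and 0 higher and 0 lower in shRgs16 (medians 0.18 and 0.07). Gas5 fell by 0.41 in shG0s2 and 0.22 in shRgs16, and Snhg3 by 1.04 in shG0s2 and 0.86 in shRgs16. By library size alone Gas5 turned to 0.08 in shG0s2 and 0.08 in shRgs16 (adjusted p = 0.39 and 0.38), and its TPM was 196 ± 7.30 in shG0s2, 186 ± 6.80 in shRgs16 and 166 ± 17.0 in shLacZ. Snhg3 in shRgs16 was then -0.57 (adjusted p = 0.056).

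With TMM, of 37 ribosome biogenesis genes, 4 were higher and 6 lower in shG0s2 (median -0.07), and 4 higher and 8 lower in shRgs16 (median 0.01). By library size alone there were 33 higher and 1 lower in shG0s2 and 23 higher and 2 lower in shRgs16 (medians 0.41 and 0.31). Ncl, the nucleolar protein nucleolin, fell by 0.94 in shRgs16, with 56.1 ± 0.973 TPM against 76.5 ± 3.83 TPM in shLacZ, and gave -0.10 in shG0s2 (adjusted p = 0.2), where library size alone gave 0.39 (adjusted p = 7e-05). Nop16, a nucleolar protein of large-subunit assembly, fell by 0.99 in shG0s2 and 0.38 in shRgs16, the last at -0.09 with library size alone (adjusted p = 0.54). Of 6 chaperones of ribosomal proteins, 1 was higher and 3 lower in shG0s2, and 3 higher and 2 lower in shRgs16, Aamp falling by 0.69 and 0.20 and Bccip by 0.46 and 0.60 in shG0s2 and shRgs16. Scaled by library size alone, this list had 3 higher and 1 lower in shG0s2 and 3 higher and 1 lower in shRgs16 (medians 0.23 and 0.34). On that scale Aamp in shRgs16 was 0.10 and Bccip in shG0s2 0.03, neither past the test (adjusted p = 0.12 and 0.74). Of 14 genes of mTORC1 and MYC control, 1 was higher and 8 lower in shG0s2, and 0 higher and 7 lower in shRgs16. Library size alone gave 8 higher and 1 lower in shG0s2 and 5 higher and 1 lower in shRgs16 (medians 0.29 and 0.12). Rheb, the activator of mTORC1, fell by 0.83 in shRgs16 and gave -0.01 in shG0s2 (adjusted p = 0.91), where library size alone gave 0.48 (adjusted p = 0.00012). Eif4ebp2, a repressor of initiation that mTORC1 inactivates, fell by 0.80 in shG0s2 and 0.24 in shRgs16, the last at 0.06 with library size alone (adjusted p = 0.45).

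Markers of other cells moved with the groups, and in bulk tissue fewer cells of a type and less RNA per cell cannot be told apart. Summed TPM of 10 macrophage markers was 1021 to 1091 in shG0s2, 726 to 886 in shRgs16 and 354 to 399 in shLacZ, with 9 of 10 higher by TMM in shG0s2 and 8 of 9 tested in shRgs16. That of 9 stellate cell and fibroblast markers was 454 to 618 in shG0s2, 181 to 277 in shRgs16 and 103 to 129 in shLacZ (9 higher in shG0s2, 5 higher and 1 lower in shRgs16). That of 8 proliferation markers was 192 to 224 in shG0s2, 92.0 to 134 in shRgs16 and 40.2 to 45.8 in shLacZ (8 higher in shG0s2, 7 in shRgs16). The ribosomal protein sum had the same order of groups as these 3 lists. By group means of summed TPM, T and NK cell, erythroid, neutrophil and cholangiocyte markers had this order too. Hepatocyte, endothelial and B cell markers did not. Steps of that order were common in TPM. Of all genes tested, 68.6% had every shG0s2 sample above every shLacZ sample. For shRgs16 above shLacZ the share was 51.3%, and for shG0s2 above shRgs16 it was 37.6%. By TMM, 31.3% of all genes were higher and 29.2% lower in shG0s2, and 24.6% and 24.5% in shRgs16. T and NK cell markers summed to 56.0 to 62.4 TPM in shG0s2, 45.2 to 64.6 in shRgs16 and 9.56 to 25.1 in shLacZ (7 of 9 higher in shG0s2, 8 in shRgs16). Erythroid markers summed to 2571 to 3250.2 TPM in shG0s2, 1284 to 3439.6 in shRgs16 and 1211 to 1778 in shLacZ (6 of 7 higher and 1 lower in shG0s2, 1 of 6 tested higher and 1 lower in shRgs16). Of the other lists, endothelial markers had 1 of 8 higher and 3 lower in shG0s2 and 2 higher in shRgs16, cholangiocyte markers 2 of 5 tested higher in shG0s2 and 2 in shRgs16, B cell markers 1 of 5 higher in shG0s2 and 1 in shRgs16, and neutrophil markers 0 of 4 tested in either. With library size alone, endothelial markers had 4 higher and 1 lower in shG0s2 and 6 higher in shRgs16, and neutrophil markers 3 higher in shG0s2 and 1 in shRgs16. On that scale 64.5% of all genes were higher and 8.01% lower in shG0s2, and 50.1% and 8.35% in shRgs16.

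The 12 hepatocyte markers summed to 33762 to 49498 TPM in shG0s2, 44269 to 49643 TPM in shRgs16 and 31706 to 35714 TPM in shLacZ, so liver-defining mRNAs were present in every sample. By TMM, 0 were higher and 11 lower in shG0s2, and 2 higher and 6 lower in shRgs16, beside 31.3% and 29.2% of all genes in shG0s2 and 24.6% and 24.5% in shRgs16. By library size alone the markers had 1 higher and 8 lower in shG0s2 and 4 higher and 2 lower in shRgs16 (medians -0.39 and 0.01). The part of these other cells, and of the Mup share, in the differences of the ribosomal protein genes was not tested.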

How the data were processed

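Liver samples, 12 in 3 groups of 4, were compared. The deposited tables held estimated counts and TPM per gene, and the authors' own log2 fold changes, fold ratios and adjusted p-values for shG0s2 and shRgs16 over shLacZ, per the file headers. Processing notes of the submitters name fastp 0.19.5, Bowtie2 2.2.9, SAMtools 1.9, GATK 3.8 and DESeq2 without roles, and no aligner role, counter, build or annotation is given in the sources used here. Ribosomal RNA was removed with Ribo-zero, per the labels. All 55536 gene IDs matched GENCODE vM21 (GRCm38), which gave coordinates. The shLacZ values were identical in both tables.

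Estimated counts were rounded and tested in R 4.3.3 with edgeR 4.0.16 (filterByExpr, TMM, robust quasi-likelihood test, Benjamini-Hochberg adjustment over all genes tested), shG0s2 and shRgs16 each with the 4 shLacZ samples and shG0s2 against shRgs16 in a fit of all 12. Alternatives were other scalings, DESeq2 1.42.0, limma 3.58.1 on log2(TPM + 1), filters at no minimum or 1 CPM in 4 samples, a replicate block, added copies and left-out samples. Whether the replicates came from different mice is not stated in the labels, and the spread behind each p-value is that between the samples at hand, which may be technical. The tests were checked on simulated counts in which as many genes were raised as lowered. Those counts held no shift like that of the Mup share, so the check does not bear on the choice of scale.

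The genes, lists and tests were chosen with earlier results of these data known. Genes are named if among the 4 highest or 4 lowest relative to the summed counts in either comparison with shLacZ with at least 10 CPM, among the 4 highest in shLacZ TPM, or for their roles (Rplp0, Rpl5, Rpl11, Rps6, Rps27a), with up to 2 genes of each other list by smallest p. Rows sharing an orthology identifier were added as an alternative after seeing the data. Start sequences are from RefSeq.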

Additional observations from a re-analysis of the deposited data

Results flagged for a closer look

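With 4 samples a group, a sample was singled out when its gap to the nearest other sample took up more of the group's range than Dixon's 95% critical value for 4 samples, which chance alone exceeds in about 1 in 20 groups. Of 72 groups examined, 2 exceeded it. The summed TPM of the 76 ribosomal protein genes in shRgs16 replicate 4 was 36722, above the other shRgs16 samples, and still between the ranges of shG0s2 and shLacZ. The TPM of Rpl7a in shLacZ replicate 4 was 485.85, below the other shLacZ samples.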

How the results depend on the processing

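Scaling decided the direction of the ribosomal protein genes as a set. Against the TMM medians, library size alone gave 0.39 in shG0s2 over shLacZ, 0.23 in shRgs16 over shLacZ and 0.16 in shG0s2 over shRgs16. Library size without Mup and mitochondrial genes gave 0.23, 0.11 and 0.12 in the same comparisons, and limma on log2(TPM + 1) gave 0.61, 0.39 and 0.25. The genes higher numbered 68, 54 and 76 in shG0s2 over shLacZ, 60, 29 and 71 in shRgs16 over shLacZ, and 41, 31 and 56 in shG0s2 over shRgs16 under these settings, and those lower 0, 0 and 0, then 4, 4 and 2, then 0, 0 and 0. The summed share over shLacZ was 1.515 in shG0s2 and 1.278 in shRgs16 as TPM, and 1.163 and 1.058 without Mup and mitochondrial genes. With no filter on low counts, 4 genes were higher in shG0s2 over shLacZ, 8 were higher relative to the sum in shRgs16 over shLacZ, and 7 were lower relative to the sum in shG0s2 over shRgs16. The causes of these changes were not tested beyond the change of setting itself.

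The main fits did not pair samples by replicate number. Correlations of same-numbered deviations ran from -0.07 to 0.14. Differently numbered samples were not correlated for reference, so these values cannot settle whether the numbers pair samples. With a replicate block, 4 genes were higher in shG0s2 over shLacZ, 11 were lower in shRgs16 over shLacZ, and 8 were higher relative to the sum in shRgs16 over shLacZ; no other count of calls moved by over 1.5 times.

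Leaving out 1 sample at a time gave 3 to 6 higher and 19 to 26 lower genes in shG0s2 over shLacZ (3 without shG0s2 replicate 4 or shLacZ replicate 4), with medians of -0.11 to -0.08. In shRgs16 over shLacZ it gave 2 to 3 higher and 10 to 19 lower (10 without shRgs16 replicate 1 or 2 or shLacZ replicate 2, 11 without shLacZ replicate 1), with medians of -0.09 to -0.04. In shG0s2 over shRgs16 it gave 8 to 9 higher and 7 to 21 lower (21, 8 and 7 without shRgs16 replicates 2, 3 and 4), with medians of -0.07 to -0.0067. Relative to the sum, the counts were 11 to 14 higher and 7 to 11 lower in shG0s2 over shLacZ, 8 to 12 and 5 to 6 in shRgs16 over shLacZ (8 higher without shRgs16 replicate 1), and 8 to 9 and 6 to 13 in shG0s2 over shRgs16 (6 lower without shRgs16 replicate 3). The summed share stayed at 1.277 to 1.325 times shLacZ in shG0s2 and 1.126 to 1.168 times in shRgs16.

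Single named genes turned sign against TMM as follows. With library size alone, shG0s2 over shLacZ gave 0.077 for Rps2, 0.10 for Rpl10, 0.13 for Rpl7a, 0.16 for Rps21, 0.42 for Rpl19, 0.40 for Rpl27, 0.34 for Rpl13a, 0.38 for Rplp1, 0.17 for Rps27, 0.46 for Rpl5, 0.30 for Rpl11, 0.27 for Rps6 and 0.38 for Rps27a. In shRgs16 over shLacZ it gave 0.14 for Rpl7a, 0.26 for Rps21, 0.29 for Rpl39, 0.089 for Rpl13a, 0.27 for Rps27, 0.24 for Rplp0, 0.16 for Rpl5, 0.18 for Rpl11, 0.20 for Rps6 and 0.22 for Rps27a, and in shG0s2 over shRgs16 0.16 for Rps24 and 0.17 for Rps27a. Without Mup and mitochondrial genes, shG0s2 over shLacZ gave 0.26 for Rpl19, 0.23 for Rpl27, 0.18 for Rpl13a, 0.22 for Rplp1, 0.010 for Rps27, 0.30 for Rpl5, 0.14 for Rpl11, 0.10 for Rps6 and 0.22 for Rps27a, and shRgs16 over shLacZ 0.019 for Rpl7a and 0.17 for Rpl39. On log2(TPM + 1), shG0s2 over shLacZ gave 0.29 for Rps2, 0.30 for Rpl10, 0.35 for Rpl7a, 0.39 for Rps21, 0.64 for Rpl19, 0.59 for Rpl27, 0.58 for Rpl13a, 0.60 for Rplp1, 0.41 for Rps27, 0.70 for Rpl5, 0.66 for Rpl11, 0.52 for Rps6 and 0.60 for Rps27a. In shRgs16 over shLacZ it gave 0.27 for Rpl7a, 0.39 for Rps21, 0.42 for Rpl39, 0.31 for Rpl13a, 0.40 for Rps27, 0.37 for Rplp0, 0.29 for Rpl5, 0.40 for Rpl11, 0.43 for Rps6 and 0.34 for Rps27a, and in shG0s2 over shRgs16 0.077 for Rpl7a, 0.0082 for Rps21, 0.21 for Rpl3, 0.36 for Rps24, 0.083 for Rplp1, 0.0071 for Rps27, 0.26 for Rpl11 and 0.26 for Rps27a. With pseudogenes added, TMM gave -0.10 for Rps13 in shG0s2 over shLacZ and -0.16 for Rpl10 and -0.16 for Rps13 in shG0s2 over shRgs16, and 0.15 for Rps6 relative to the sum in shRgs16 over shLacZ. With all family rows added, an alternative chosen after seeing the data, TMM gave -0.099 for Rps13 in shG0s2 over shLacZ and -0.16 for Rpl10, -0.16 for Rps13 and 0.63 for Rps27 in shG0s2 over shRgs16. Relative to the sum, the family rows gave -0.14 for Rpl10, -0.14 for Rps13 and 0.65 for Rps27 in shG0s2 over shRgs16 and -0.0067 for Rpl36a, -0.76 for Rps27 and 0.15 for Rps6 in shRgs16 over shLacZ.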
